A study of Mus musculus with 3 samples.

Results

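Neural crest specifiers are the transcription factors and receptors that mark and shape the neural crest, and 10 of them were followed here in mouse embryoid bodies: Sox10, Foxd3, Tfap2a, Tfap2b, Pax3, Snai2, Twist1, Ets1, Ednrb and Msx1. They were taken by gene name from 30397 genes on the array and are read by 14 of its 39429 probes. After the filter on dim probes 9 of the 10 could be tested among 20388 genes, and Tfap2b could not. In each of 3 biological replicates, wild-type embryoid bodies were compared with embryoid bodies of the genotype Dido3deltaCT+HADido3CT, called mutant+CT below. Their Dido3 protein is truncated at its C-terminus and the missing region, encoded by exon 16 of Dido1, is overexpressed. All were kept 10 days in suspension without LIF, the cytokine that holds embryonic stem cells undifferentiated. Replicate 1 is on array 1, 2 on array 2 and 3 on array 3, each with both RNAs. Mutant+CT was in Cy3 on arrays 1 and 3 and in Cy5 on array 2. No sample carried the truncation or the construct alone, so their effects cannot be told apart. The parental line, the number of clones and the promoter of the construct are not given in the sources used here.

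The neural crest arises at the border between the neural plate and the surface ectoderm, where BMP, Wnt and FGF signals switch on border factors such as Pax3, Msx1 and Tfap2a. These factors turn on Foxd3, Sox10, Ets1 and Snai2, and the cells then leave the neural tube, migrate, and form peripheral neurons, glia, pigment cells and the skeleton of the face. Most of these genes have other uses in an embryoid body: Snai2, Twist1 and Msx1 in mesenchyme, Ets1 in endothelium and blood, Tfap2a in surface ectoderm, Pax3 in the dorsal neural tube and somites, and Foxd3 in pluripotent cells. In bulk RNA a lower level can mean fewer cells of a type or less RNA per cell, and these cannot be told apart.

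The stretches of 30 bases below come from the probes of the specifiers whose groups did not overlap, and from both probes of each gene that has 2, since the place of a probe in the transcript bears on what its signal counts. Capitals mark AATAAA, the hexamer of the polyadenylation signal, which 4 of the 14 member probes and 4965 of all 39429 probes (12.6%) hold. A match does not show that the transcript ends there.
Sox10, A_55_P2094729: tccagcgataccttAATAAAgtacgtagct
Pax3, A_55_P2033705: gaatcttctcagaaacaaaacAATAAAaaa
Pax3, A_51_P315734: gtattaaatatgacattgtcagcctgtagc
Tfap2a, A_55_P1964812: gttgcccagataAATAAAtatttgatacgc
Tfap2a, A_55_P2199463: gacggataatatcaagtacgaagactgcga
Foxd3, A_55_P2160815: gtataaagacgttgggagattttaaatcca
Ets1, A_52_P194250: tacgtacattccaaagacgtttcaaggaac
Ets1, A_52_P232830: gccgtggccttcgctactattatgacaaaa
Ednrb, A_52_P577662: agttattggctccccagtagtttcacagcg
Ednrb, A_55_P2089710: aagaagagcggtatgcagattgctttgaat
The exon or untranslated region that each probe falls in was not determined, since no annotation of the files' build, mm9, was used.

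Across the series, 68.1% to 78.5% of the spots in a channel were well above background and no spot was saturated. The number of arrays limits the precision. Across genes, which are not independent replicates, the log2 ratios of arrays 1 and 3 correlated at 0.54, those of arrays 2 and 3 at 0.38 and those of arrays 1 and 2 at 0.18 (Pearson). Within groups, mutant+CT replicate 1 and wild-type replicate 2 stood apart: the SD over genes of the log2 difference was 0.91 between mutant+CT replicate 1 and each of the others against 0.70 between those others, and 0.81 and 0.80 between wild-type replicate 2 and the others against 0.62 between those. Wild-type replicate 2 is also the only wild-type RNA in Cy3, so the sample and its dye cannot be told apart, whereas mutant+CT replicate 1 shares its dye with replicate 3. The 4 probes of the targeted gene, Dido1, had mean log2 ratios from -2.39 to 3.53. The highest, A_66_P128564, had 3.42, 3.53 and 3.66 on arrays 1 to 3. Fitted by probe rather than by gene, it had an adjusted p of 0.0435 (limma), and the others had 0.0644 to 0.361. The place of the 4 probes relative to exon 16 was not determined, so they do not check the labels.

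Of the 9 specifiers measured, Pax3, Tfap2a and Sox10 were lower in every mutant+CT sample than in any wild-type sample, and Foxd3 was higher. Msx1 was lower on every array with overlapping groups, and the ratios of Snai2, Twist1, Ets1 and Ednrb changed sign between arrays. None passed the test. Tested with limma across the whole table (Benjamini-Hochberg), 0 of 9 had an adjusted p under 0.05, as had 0 of all 20388 genes (0%), and at an adjusted p under 0.1 the counts were 0 of 9 and 298 (1.46%). At an unadjusted p under 0.05 there were 3 specifiers lower, against 6.7% of all genes, and 1 higher, against 9.04%. Groups did not overlap for 3 specifiers lower in mutant+CT, against 6.46% of all genes, and for 1 higher, against 9.51%. The median log2 ratio over the 9 specifiers was 0.95, -1.43 and -1.41 on arrays 1 to 3. Over the mean ratios it was -0.74, beside -0.0025 over all genes, and it was -1.11, -0.82 and -0.28 without array 1, 2 or 3. Of the specifiers, 0 of 9 were at least 2-fold apart in 1 direction on every array (1.9% of all genes higher, 0.991% lower).

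**Figure D1:**
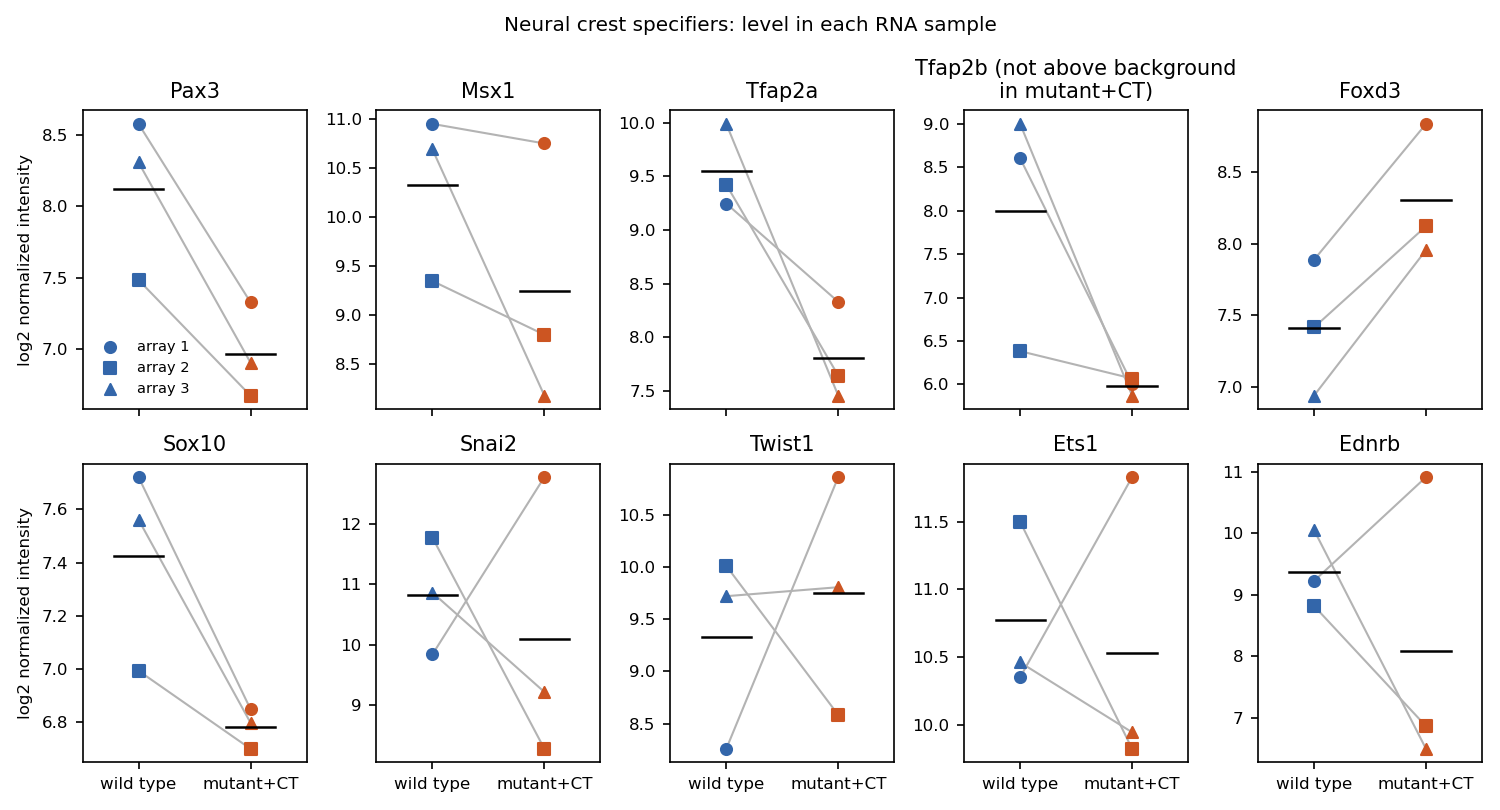
Level of each neural crest specifier (log2 normalized intensity, own scale per panel) in the 3 wild-type and 3 mutant+CT RNA samples. Lines join the 2 samples of an array and black bars are group means. Pax3, Tfap2a and Sox10 lie lower and Foxd3 higher in all 3 mutant+CT samples. Mutant+CT replicate 1 (circles) tops the panels of Snai2, Twist1, Ets1, Ednrb and Foxd3. The untested Tfap2b was well above background in 2 of 3 wild-type and 0 of 3 mutant+CT samples, and wild-type replicate 2 was close to the mutant+CT level.

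Among the border factors, Pax3, the paired-box factor of the dorsal neural tube, crest and somites, was read best by probe A_55_P2033705 (chr1:78099294-78099353, mm9, minus strand; NM_008781). Its levels, as log2 normalized intensity, were 8.58, 7.48 and 8.31 in wild-type replicates 1, 2 and 3 and 7.33, 6.67 and 6.90 in mutant+CT. Wild-type replicate 2 was the lowest of its group, and the highest mutant+CT sample stayed 0.16 below it. The log2 ratios of -1.25, -0.81 and -1.41 had a mean of -1.16 ± 0.31 (SD, n = 3), or 2.23-fold lower (limma, adjusted p = 0.129). That SD was smaller than those of Tfap2a, Msx1, Snai2, Twist1, Ets1 and Ednrb. A second probe, A_51_P315734, lies 182 bases away and is spotted 10 times. It was well above background in 2 of 3 wild-type and 0 of 3 mutant+CT samples, so it was not tested. Its ratios of -0.44, -0.10 and -0.79 compare signals near background, so they set no firm bound on the fold. Its spots gave an SD of the log2 ratio of 0.14 to 0.15 within an array, which measures spot noise only. On Agilent's processed signals the mean of the brighter probe was -1.99 (limma, adjusted p = 0.0538).

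Tfap2a, an AP-2 factor of the plate border, crest and surface ectoderm, had the lowest mean ratio of the 9. Its brighter probe, A_55_P1964812 (chr13:40811044-40811103, mm9, minus strand; NM_001122948), had levels of 9.25, 9.42 and 9.99 in wild type and 8.33, 7.64 and 7.46 in mutant+CT. The groups lay 0.92 apart, the widest gap of the 9 specifiers. The log2 ratios of -0.92, -1.78 and -2.54 differed in size, with a mean of -1.74 ± 0.81, or 3.35-fold lower (limma, adjusted p = 0.129). Limma on the ratios gave adjusted p from 0.0625 to 0.350 for Tfap2a in its alternatives, with 0.261 when a dye term was added. A separate-channel fit with the array as a block and no dye term gave the same ratio with adjusted p = 0.0376. It called Tfap2a alone of the 9 specifiers, and 2.32% of all genes. With a dye term, added after the data were seen, the result of this fit depended on the correlation between the channels of an array. At the correlation estimated without that term (0.31) 0 of 9 specifiers and 1.02% of all genes were called (Tfap2a, adjusted p = 0.0965). At the one estimated with it (0.90, from 3 residual degrees of freedom) Tfap2a, Pax3, Sox10 and Foxd3 were called, with 18.6% of all genes. The second probe, A_55_P2199463 (chr13:40829040-40829099), is 18.0 kb away on the 5′ side and belongs to transcript variant 1. It was well above background in 1 wild-type and 0 mutant+CT samples, with ratios of -0.20, -0.08 and -0.25, so it gives no measure of that variant in mutant+CT.

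Tfap2b, the AP-2 paralog of crest and its sympathetic and cranial derivatives, was too dim to be tested. Its probe A_51_P360396 (chr1:19228555-19228614, mm9, plus strand; NM_001025305) had levels of 8.60, 6.38 and 9.0 in wild type and 6.01, 6.07 and 5.87 in mutant+CT. The signal was well above background in 2 of 3 wild-type samples and in 0 of 3 mutant+CT samples. Wild-type replicate 2 was close to the mutant+CT level, so the array ratios were -2.60, -0.31 and -3.13. Since the mutant+CT group was not well above background, the fold of Tfap2b is given as a bound. On each array it is taken against the group's own level or the dimmest signal that is well above background, whichever is higher. The mean over arrays was at least 3.46-fold higher in wild type. The bound was 2.97 without array 1, 5.78 without array 2 and 2.42 without array 3, and it does not hold for array 2 alone. Without the filter on dim probes, the mean of -2.01 had an adjusted p of 0.351 (limma).

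Msx1, a homeobox factor downstream of BMP at the border and in limb and facial mesenchyme, had levels of 10.95, 9.34 and 10.69 in wild type and 10.75, 8.80 and 8.17 in mutant+CT (probe A_52_P561671, chr5:38212305-38212364, mm9, minus strand). Mutant+CT replicate 1 was as high as the wild-type samples, and the groups overlapped. The ratios of -0.20, -0.55 and -2.52 gave a mean of -1.09 ± 1.25 (limma, adjusted p = 0.375). Array 3 sets most of this mean, which was -0.37 without it. Of the 9 specifiers, 4 were lower on every array, Pax3, Tfap2a, Sox10 and Msx1, against 17.4% of all genes.

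Foxd3, a forkhead repressor needed both in the early crest and in pluripotent epiblast, was the only specifier higher on every array (20.3% of all genes were). Its single probe, A_55_P2160815 (chr4:99325170-99325229, mm9, plus strand; NM_010425), had levels of 7.89, 7.42 and 6.94 in wild type and 8.83, 8.12 and 7.96 in mutant+CT. The highest wild-type and the lowest mutant+CT samples were 0.07 apart, so the groups separated by a narrow margin. Within each array the pair differed by nearly the same amount: the ratios were 0.95, 0.71 and 1.01, with a mean of 0.89 ± 0.16, or 1.85-fold (limma, adjusted p = 0.166). That SD was the smallest of the 9 specifiers. Markers of pluripotent cells moved with it: 7 of 8 were higher on every array, with a list median of 1.27. The mean level of that list was 10.91 to 11.71 in wild type and 12.30 to 13.55 in mutant+CT. Nr0b1 had 2.67 ± 0.91 and Zfp42 2.17 ± 1.22, while Nanog, which is chosen here after its value was seen, had 0.09 ± 0.09. The part of these cells in the Foxd3 ratio was not tested.

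Sox10, the SoxE factor that maintains crest stem cells and directs glia and pigment cells, was dim in every sample. Its probe A_55_P2094729 (chr15:78985518-78985577, mm9, minus strand; NM_011437) had levels of 7.72, 6.99 and 7.56 in wild type and 6.85, 6.70 and 6.80 in mutant+CT. All 6 values were marked well above background, but the dimmest probes so marked on these arrays lay between 5.57 and 6.37. Every mutant+CT sample was below every wild-type one, with wild-type replicate 2 only 0.14 above the nearest. The ratios of -0.87, -0.29 and -0.76 averaged -0.64 ± 0.31, or 1.56-fold lower (limma, adjusted p = 0.287). Agilent's processed signals gave -1.28 (limma, adjusted p = 0.149).

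**Figure D2:**
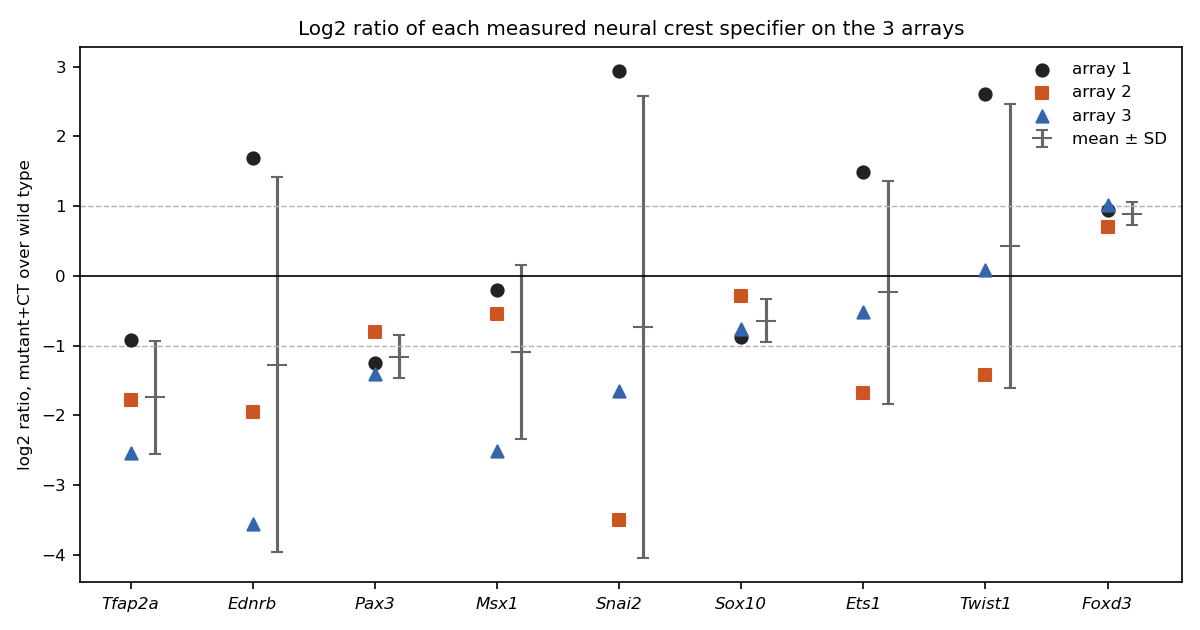
Mutant+CT over wild type, as log2 ratio, for each of the 9 measured specifiers, ordered by mean, with 1 symbol per array and the mean ± SD beside them. Dashed lines mark 2-fold. Foxd3, Sox10 and Pax3 have SDs of 0.16 to 0.31, whereas Snai2, Ednrb, Twist1 and Ets1 range from values above 1 on array 1 to values below -1 on array 2.

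The genes that act when crest cells leave the neural tube differed between arrays. Snai2 (Slug), a zinc-finger repressor of E-cadherin, had levels of 9.84, 11.77 and 10.86 in wild type and 12.77, 8.28 and 9.22 in mutant+CT (probe A_51_P305547, chr16:14709361-14709420, mm9, plus strand). Mutant+CT replicate 1 was the highest of the 6 samples and the other mutant+CT samples were the lowest. The ratios were 2.93, -3.50 and -1.65, with a mean of -0.74 ± 3.31 (limma, adjusted p = 0.846). The mean turned to 0.64 without array 2 and was -2.57 without array 1.

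Twist1, a bHLH factor of cranial crest and mesoderm, had levels of 8.26, 10.01 and 9.72 in wild type and 10.86, 8.58 and 9.81 in mutant+CT (probe A_52_P20906, chr12:34644411-34644470, mm9, plus strand). The ratios of 2.61, -1.43 and 0.09 gave a mean of 0.42 ± 2.04 (limma, adjusted p = 0.862). The mean was -0.67 without array 1 and -0.04 with a dye term, so Twist1 has no settled direction here.

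Ets1, an ETS-domain factor of cardiac and cranial crest and of endothelium, had levels of 10.35, 11.50 and 10.46 in wild type and 11.83, 9.82 and 9.94 in mutant+CT at its brighter probe, A_52_P194250 (chr9:32564860-32564919, mm9, plus strand). The ratios of 1.48, -1.67 and -0.52 gave a mean of -0.24 ± 1.60 (limma, adjusted p = 0.908). The other probe, A_52_P232830 (chr9:32561826-32561885), lies 3.03 kb away on the 5′ side and gave 1.55, -0.78 and 0.17, with a mean of 0.32 ± 1.17. Both probes put array 1 highest and array 2 lowest, but they disagree in the sign of array 3 and of the mean. The mean over both probes was above 0, and so was the mean of the brighter one without array 2 (0.48).

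Ednrb, the endothelin receptor through which Edn3 sustains melanoblasts and enteric crest, showed the widest range of levels in mutant+CT after Snai2. At probe A_52_P577662 (chr14:104214484-104214543, mm9, minus strand; NM_007904) the levels were 9.22, 8.82 and 10.05 in wild type and 10.91, 6.86 and 6.50 in mutant+CT. Mutant+CT replicate 1 was above every wild-type sample, and replicates 2 and 3 were below all of them. The ratios of 1.68, -1.95 and -3.56 gave a mean of -1.28 ± 2.69 (limma, adjusted p = 0.609), -2.75 without array 1 (adjusted p = 0.0519), -0.94 without array 2 (0.724) and -0.13 without array 3 (1.00). The second probe, A_55_P2089710, is 6.39 kb away on the 5′ side and dimmer, with a mean log2 intensity of 6.72 against 8.73. It was well above background in 2 of 3 mutant+CT samples and gave 1.05, -0.32 and -0.84, the same sign on each array with a smaller size and a mean of -0.04 ± 0.98. The mean over both probes was -0.66 (limma, adjusted p = 0.717).

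**Figure D3:**
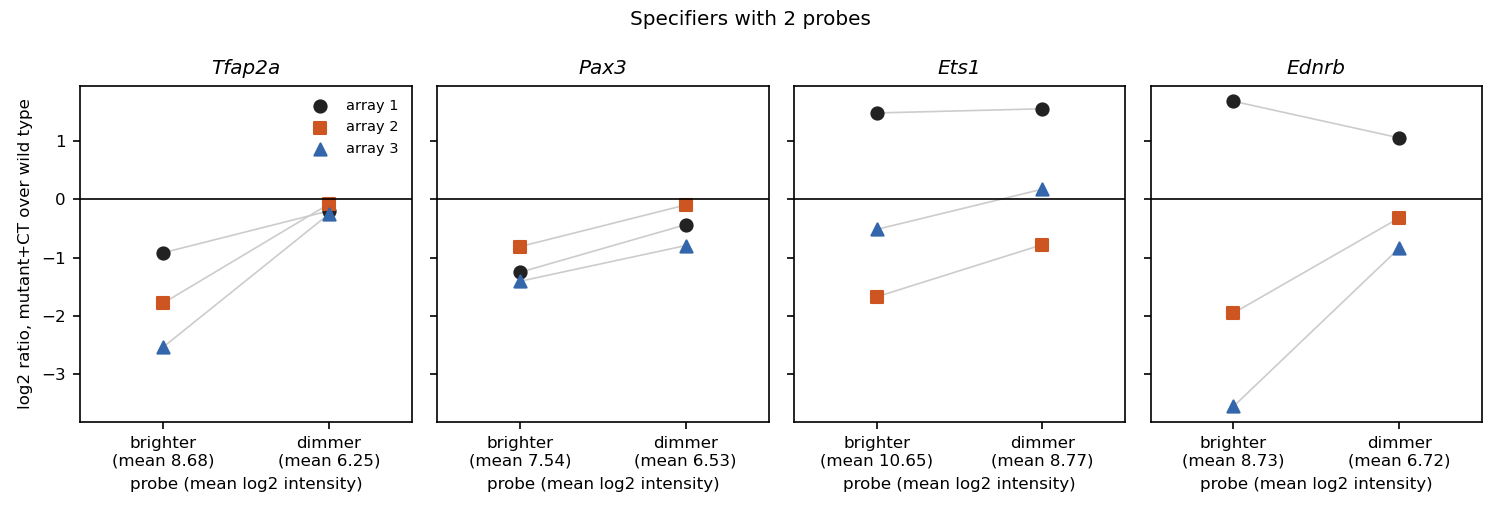
Mutant+CT over wild type, as log2 ratio, at both probes of Tfap2a, Pax3, Ets1 and Ednrb, the brighter probe on the left, with 1 symbol per array. The dimmer probe is closer to 0 for Tfap2a, Pax3 and Ednrb; for Ets1 the probes differ by 0.07 on array 1 and by 0.69 to 0.90 on the others.

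These genes share a feature: mutant+CT replicate 1 was at least 2-fold above both other mutant+CT replicates for 5 of 9 specifiers, Ednrb, Snai2, Msx1, Ets1 and Twist1, against 6.3% of all genes. This count was chosen after the values were seen. Its excess over the higher of the others was 4.04 for Ednrb, 3.55 for Snai2, 1.95 for Msx1, 1.89 for Ets1 and 1.06 for Twist1, on the log2 scale. For 4 of 9 specifiers the ratio was above 0 on array 1 and below 0 on array 2, against 25.3% of all genes. For Pax3, Tfap2a, Sox10 and Foxd3 that sample was also the highest of the mutant+CT group, by 0.05 to 0.71.

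Markers of other cell types moved with this sample. The 10 mesenchyme markers had a mean level of 13.41 in mutant+CT replicate 1, 8.64 and 9.78 in replicates 2 and 3, and 10.37 to 10.69 in wild type. Their median ratios were 3.85, -2.01 and -1.22 on arrays 1 to 3, and their member with the smallest p, Pdgfra, a receptor of mesenchyme, was below 0 on every array, with -1.07 ± 0.54. The 6 cardiomyocyte markers had a mean level of 12.80 in mutant+CT replicate 1 and 8.39 to 9.54 in the other 5 samples, with Myh6, a cardiac myosin, at 1.74 ± 2.07. The 7 measured endothelial markers, of 8, had 9.63 in that sample and 7.42 to 8.51 elsewhere, with median ratios of 1.24, -1.25 and -1.54 on the 3 arrays and a median of -0.16 over the mean ratios. Pecam1, an endothelial adhesion molecule with the smallest p, had 1.26 ± 0.57 and was the only one of the 7 higher on every array. The part of these cells in the ratios of Snai2, Twist1, Ets1, Ednrb and Msx1 was not tested. Without array 1 the median over the 9 specifiers was -1.11, and all but Foxd3 had a mean ratio below 0. Twist1 was still above 0 on array 3 (0.09). In that setting 0 of 9 had an adjusted p under 0.05 (limma).

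A different sample stood out for the neural genes. The 8 neural progenitor markers had a mean level of 8.98 in wild-type replicate 2 against 11.55 and 11.94 in the other wild-type samples, and 7.76 to 8.65 in mutant+CT. The 5 measured dorsal neural tube markers, of 9, had 7.83 in wild-type replicate 2 against 9.56 and 9.33, and 7.04 to 7.23 in mutant+CT. Pax3, Sox10 and Msx1 were also lower in that sample than the mean of the other wild-type samples, by 0.96, 0.65 and 1.47 on the log2 scale, as was Ednrb by 0.82, while Snai2, Ets1 and Twist1 were 1.42, 1.09 and 1.02 higher there. For Tfap2a it was 0.20 lower and for Foxd3 the difference was 0.00. Wild-type replicate 2 was at least 2-fold below both other wild-type samples for 1 of 9 specifiers, Msx1 (4.03% of all genes), and at least 2-fold above both for 1, Ets1 (5.34%). On array 2, which carries this sample, Pax3 and Sox10 had the ratios nearest 0. The dorsal neural tube genes Zic1 and Lmx1a were at least 2-fold lower on every array, with -4.74 ± 2.33 and -2.48 ± 1.31, as were the neural progenitor genes Hes5 (-3.92 ± 1.49), Sox3 (-2.19 ± 0.71), Pax6 (-3.19 ± 1.35) and Sox1 (-3.11 ± 1.37). On every array, 4 of 5 dorsal neural tube and 6 of 8 neural progenitor markers were lower (17.4% of all genes). The rest changed sign between arrays: Gdf7 had 0.08 ± 0.14, Nes -1.28 ± 1.51 and Sox2 0.16 ± 0.62. The part of neural cells in the ratios of Pax3, Sox10 and Tfap2b was not tested.

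**Figure D4:**
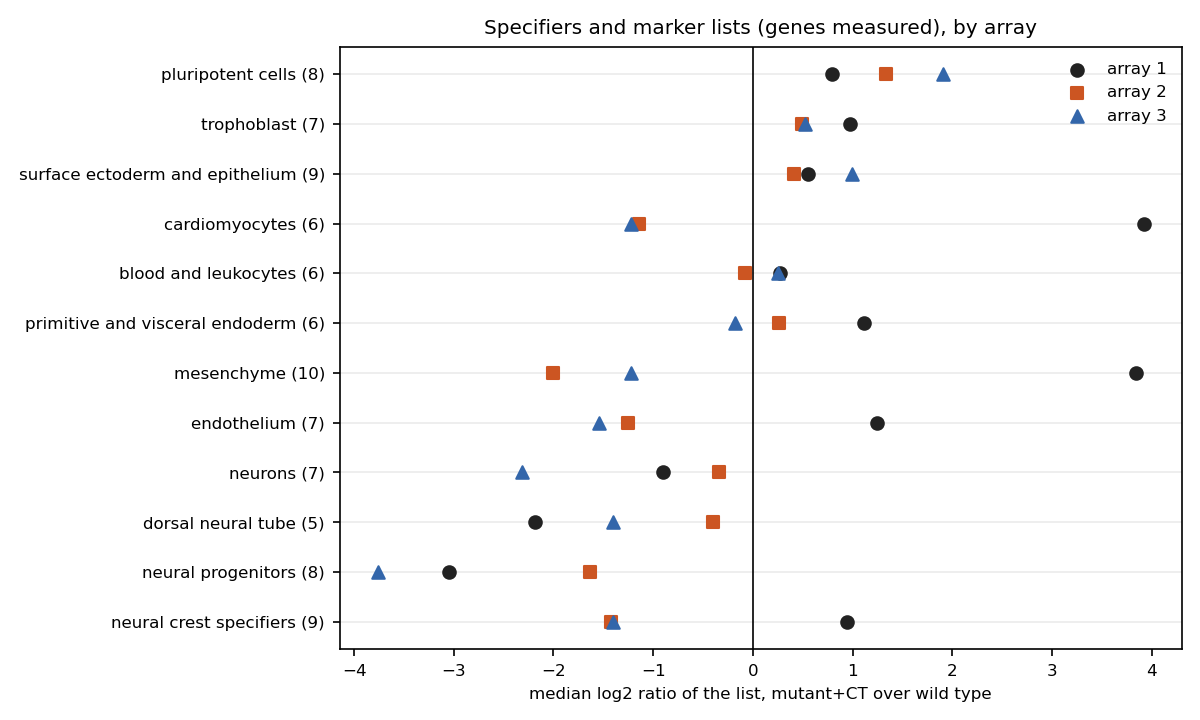
Median log2 ratio (mutant+CT over wild type) on each array, for the neural crest specifiers and for 11 lists of cell type markers, with the number of genes measured in brackets. Array 1 stands apart for mesenchyme (3.85) and cardiomyocytes (3.92) and, less far, for the specifiers (0.95), while neural progenitors are below 0 on all 3 arrays.

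The remaining marker lists cover cells that also use a specifier. Of 9 surface ectoderm and epithelium markers, where Tfap2a is active, 4 were higher and 0 lower on every array (20.3% and 17.4% of all genes). The list median was 0.43, with Grhl3, a factor of surface ectoderm, at 1.54 ± 0.58. The other 5 changed sign between arrays. Among them Krt5, Krt14 and Trp63, named after their values were seen, had -0.15 ± 0.35, 0.12 ± 0.41 and 0.06 ± 0.66. The median of the 9 markers was above 0 on each array (0.55, 0.41 and 1.00), and the ratio of Tfap2a below 0. The part of these cells in the Tfap2a ratio was not tested. Trophoblast markers had a median of 0.82 over 7 genes, with Ascl2 at 1.53 ± 0.82. Among them Tfap2c, the AP-2 paralog of trophoblast, which was chosen after its value was seen, had -0.03, 0.81 and 1.66 on the 3 arrays. Blood and leukocyte markers had a median of 0.19 over 6 of 7, with the embryonic globin Hbb-bh1 at -3.30 ± 1.97. Endoderm markers had 0.14 over 6, 2 higher and 2 lower at an unadjusted p under 0.05 (9.04% and 6.7% of all genes). The apolipoprotein Apoa1, with the smallest p, had 2.12 ± 0.58, while Sox17 and Gata4, named after their values were seen, had -0.77 ± 0.36 and -0.67 ± 0.29. Neuron markers had a median of -1.16 over 7, and Dcx was lower on every array but well above background in only 1 of 3 mutant+CT samples. Of these 11 lists, 0 members had an adjusted p under 0.05 (limma). At an unadjusted p under 0.05, 7 of 8 pluripotent markers were higher (9.04% of all genes) and 6 of 8 neural progenitor markers lower (6.7%).

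Other genes of the crest programme were read from lists, and 0 of their members had an adjusted p under 0.05 (limma). Of 10 measured plate border genes, of 12, 3 were lower and 1 higher at an unadjusted p under 0.05 (6.7% and 9.04% of all genes), with a median of -0.38. Zic2, a zinc-finger factor of the dorsal neural plate, had the smallest p, with ratios of -1.57, -1.55 and -2.20 (limma, adjusted p = 0.0880). Of 15 measured further specifier and migration genes, of 17, 3 were lower and 0 higher, with a median of -0.38. Snai1, the paralog of Snai2 with the like repressor role, was at least 2-fold lower on every array, with -1.40, -2.08 and -1.01. The 2 Snail genes thus had different patterns over arrays, with array 1 below 0 for Snai1 and above 0 for Snai2.

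Paralogs of the specifiers were compared in the same way, and 12 of 16 were measured. Foxd1, a forkhead paralog of Foxd3 expressed in forebrain and kidney stroma, was at least 2-fold lower on every array, with -1.90, -1.82 and -2.59 and a mean of -2.10 ± 0.42 (limma, adjusted p = 0.0843). Its sign is opposite to that of Foxd3 on each array, and that difference was not tested. Ednra and Twist2, chosen after their values were seen, had 1.74, -1.73 and -2.22 and 2.35, -1.25 and -1.26, with the same signs as Ednrb. On every array 7 of the 12 paralogs lay below 0 (17.4% of all genes) and 1 lay above it (20.3%), with a median of -0.51. In the endothelin pathway 6 of 6 genes were measured, with a median of -0.45. Edn2, a ligand, had the smallest p, at -1.21 ± 1.09.

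Genes of crest derivatives were partly below the filter. Over all genes, 6.7% were lower and 9.04% higher at an unadjusted p under 0.05 (limma). For Schwann cells and glia 5 of 9 were measured, and Fabp7, which radial glia also express, was at -4.24 ± 2.02. For melanocytes 6 of 8 were measured, 2 lower and 1 higher at an unadjusted p under 0.05, with a median of -0.90 and with Kit, the receptor of melanoblasts and several other stem cells, at -1.40 ± 0.59. For autonomic and enteric neurons 8 of 10 were measured, 2 lower and 0 higher at that threshold, with a median of -0.61 and Insm1 at -2.68 ± 1.53. For sensory neurons 6 of 8 were measured, 2 lower and 1 higher at an unadjusted p under 0.05, with a median of -0.45. Peripherin (Prph), with the smallest p, had 1.08 ± 0.61, while Neurog2 and Ntrk2, named after their values were seen, had -2.35 ± 1.77 and -1.79 ± 1.54. For facial mesenchyme 10 of 10 were measured, with a median of -0.23 and the homeobox gene Dlx2, with the smallest p, at -1.75 ± 1.70. These lists share genes with neural and mesenchymal cells, so they do not show crest cells by themselves.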

How the data were processed

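Two-colour arrays were read from 3 deposited scanner files of Agilent Feature Extraction 10.7.3.1, which hold spot intensity and local background in each dye per the file headers. They also hold Agilent's processed intensity and a log10 ratio that the authors deposited, the latter not used for results. The deposited value table holds log2 ratios made with limma, per the submitters' processing notes. Its direction was matched to the scanner ratios (Pearson 0.994 to 0.998).

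Ratios were computed in R 4.3.3 with limma 3.58.1: normexp background (offset 50), loess within arrays, outlier spots left out, and signs turned to mutant+CT over wild type. Levels are log2 intensities after Aquantile, and compare samples of 1 probe only. Across arrays they are open to dye bias, since 1 of 3 arrays is swapped. Probes well above background on all 3 arrays in either group were kept (26316 of 39429). A gene is its brightest kept probe, and genes other than the specifiers are named by RefSeq accession where matched (30708 of 43020 spots). Log2 ratios were tested against 0 with limma, adjusted over all 20388 genes. Alternatives varied the background correction, normalization, filter, probe rule, variance prior, threshold, dye term, array block and arrays used. Steps were tested on simulated data. Named from each list are the gene with the smallest p and up to 4 genes per direction at least 2-fold apart on every array. Specifiers and lists were chosen with earlier results of these data known.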

Additional observations from a re-analysis of the deposited data

How the results depend on the processing

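The count of 0 specifiers called held in 15 of 17 alternatives, 2 of them chosen after seeing the data. It was 1 (Tfap2a) in the separate-channel fit with the array as replicate block, and 4 in that fit with a dye term and its own correlation. The count of 0 genes called over the whole table was 290 on Agilent's processed signals, 13 with probes above background in both channels, 176 with a trended and robust variance prior, 298 at an adjusted p under 0.1, and 472 with the replicate block. With a dye term in that block fit it was 3793 at its own correlation and 207 at the correlation of the fit without it. It was 0 to 147 when 1 array was left out, with 147 without array 1. The correlation sets the difference between 3793 and 207; for the other counts the cause was not tested. The numbers pair samples because both RNAs of a replicate share an array. The median over the specifiers ranged from -1.11 to -0.28 when 1 array was left out and was -1.23 on Agilent's processed signals. Pax3, Tfap2a, Sox10, Foxd3, Msx1 and Ednrb kept their sign in all 16 alternatives that give a ratio. Snai2 turned in 1, Ets1 in 2 and Twist1 in 4. These 16 are not separate checks of sign, since several return the main ratio unchanged. The fits with a dye term share 1 ratio per gene. For Twist1 it is -0.04, and its other turn was without array 1. A gene with the same sign on every array cannot turn when an array is left out. Dim signals limit Tfap2b and Sox10.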
